A study of Cucurbita moschata with 6 samples.

Results

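The genes described here are those of pumpkin (Cucurbita moschata) that the deposited annotation names after COP1, SPA, HY5, DET1, DDB1 partners, the COP9 signalosome, the far-red factors FHY3, FAR1 and FHL, or the phytochrome kinase substrates. They were found by searching the product names for these terms, with case respected. The search itself used no expression value, but the genes were chosen with earlier results of these data known. The search returned 86 of the 32205 genes in the table. Of these, 79 had an FPKM of 1 or more in 3 or more libraries and were tested, and 7 did not.

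In Arabidopsis, COP1 and the SPA proteins form the substrate-binding part of a CUL4-DDB1 ubiquitin ligase that marks HY5 and other light-promoting transcription factors for degradation in darkness and shade. A second CUL4-DDB1 assembly holds DET1, and the COP9 signalosome removes the ubiquitin-like protein NEDD8 from cullins and so keeps these ligases cycling. Phytochrome A, the receptor for continuous far-red light, enters the nucleus with FHY1 or FHL, whose genes are switched on by the transposase-derived factors FHY3 and FAR1. Phytochrome kinase substrates (PKS) are membrane-associated proteins that bind phytochromes and phototropins and act in phototropism and hypocotyl growth orientation.

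Poly(A) RNA was sequenced from hypocotyls, the seedling stem below the cotyledons, in 2 groups of 3 libraries titled SR and SCK. All seedlings shared the species and a growth regime with 14 h days at 28 °C and 10 h nights at 18 °C, and were used with open cotyledons. The labels do not expand either title. The series names 1 treatment and 1 control, CK customarily stands for a control in agronomy, and SCK is therefore taken as the control and SR as the treated group. A far-red exposure of 120 s is entered in the treatment field of SR and SCK samples alike, so how the groups differed in light is not given beyond the titles. Neither separate plants nor separate batches are stated for the replicates, and the p-values therefore measure the spread between these libraries, which may be technical.

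Deposited counts summed to between 52300725 and 72356397 per library. The level in SCK replicate 3 was intermediate to those in SCK replicates 1 and 2 in 57.7% of all tested genes and in 37 of the 79 tested genes of the module (46.8%). Product names of chlorophyll a-b binding proteins and the Rubisco small subunit, which mark leaf and cotyledon mesophyll, matched 29 genes. Their summed level was 9835, 7938 and 8110 FPKM in SR and 16183, 9754 and 12315 FPKM in SCK replicates 1 to 3. Of 26 tested, 10 fell and 0 rose. Of the 29, 1 was at 0 in every library. Xylem and secondary wall genes (19 matched, 11 tested, 2 rose, 0 fell) summed to 85.2 to 132 FPKM in SR and 64.9 to 77.0 FPKM in SCK. Root-named genes (4 matched, 4 tested, 0 called) summed to 49.4 to 51.0 FPKM in SR and 41.1 to 47.7 FPKM in SCK. The sums of seed reserve genes (23 matched, 7 tested, 1 rose, 0 fell) and of phloem exudate genes (32 matched, 27 tested, 0 rose, 6 fell) overlapped between the groups. Over all tested genes, 7.20% rose and 7.16% fell. The part of these differences in the results below was not tested, and in bulk tissue fewer cells of a type and less RNA per cell cannot be told apart. Levels are deposited FPKM, read pairs scaled to gene length and library size. Changes are log2 fold changes of SR over SCK ± SE from edgeR's quasi-likelihood test with TMM scaling, and a gene rose or fell where its Benjamini-Hochberg adjusted p over 23509 genes was under 0.05. FPKM carries no TMM scaling. Across all tested genes the median log2 fold change was 0.01 with TMM and 0.14 with library totals alone, which places most changes a little lower than the FPKM ratios would.

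Of the 79 tested genes, 9 fell and 0 rose. The falls were 2 COP1 genes, 2 SPA genes, 1 gene for COP1-interactive protein 1, 2 DDB1- and CUL4-associated factors, 1 COP9 signalosome subunit 7 gene and 1 PKS gene. Falls made up 11.4% of the module against 7.16% of all tested genes, and rises 0% against 7.20%. Either direction was called in 14.4% of all tested genes. Shares given below for single groups rest on few genes, so 1 call moves them strongly. The median log2 fold change of the module was -0.18 and that of all tested genes 0.01; with library totals alone these were -0.06 and 0.14. Signs were negative in 52 genes and positive in 27, with a range of -1.48 to 1.12. The SR levels lay wholly above the SCK levels in 17 genes (21.5%, against 27.9% of all tested genes) and wholly below them in 17 (21.5%, against 12.7%), and one or the other held for 40.6% of all tested genes. The 17 above include CmoCh07G003490, a FAR1-RELATED SEQUENCE 10 gene that passed the filter through its SR libraries alone. In 59 of the 79 the 95% interval of the change stayed within a 2-fold change either way.

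**Figure D1:**
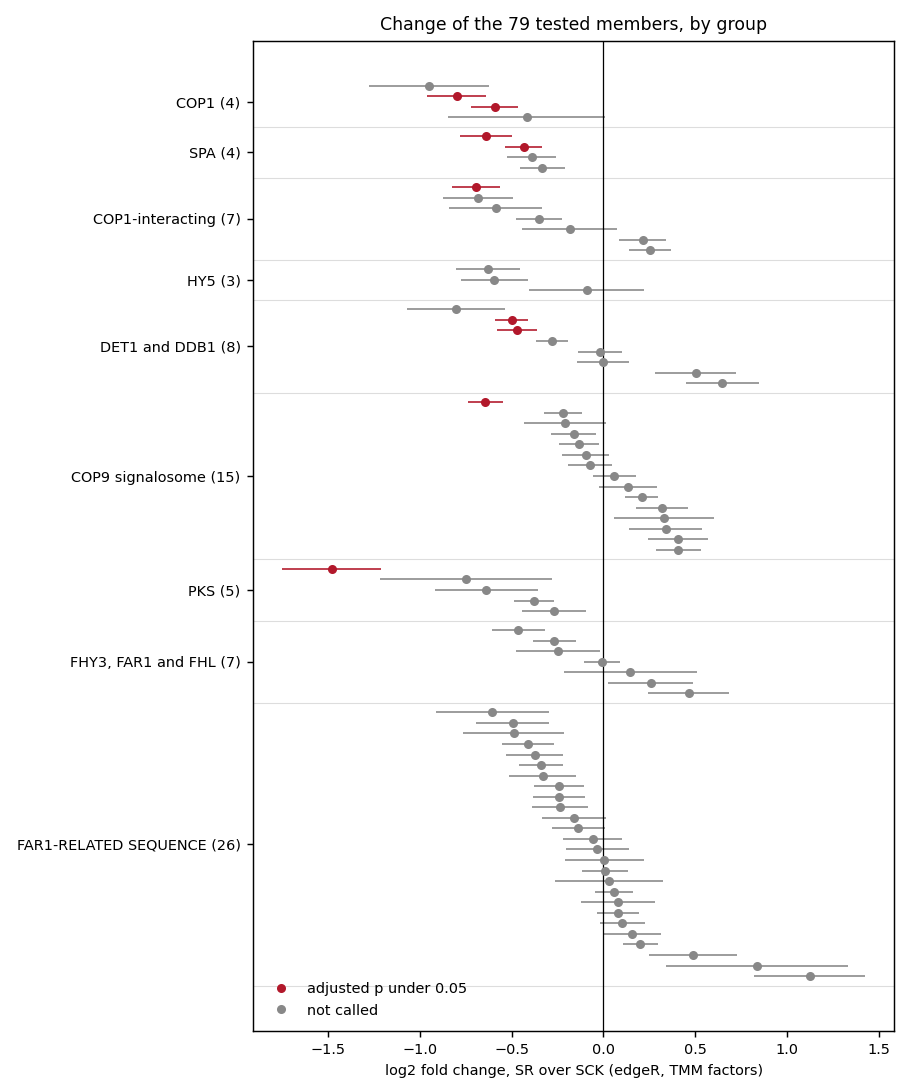
Log2 fold change of SR over SCK for each of the 79 tested genes, sorted within functional groups whose number of genes stands in brackets; bars are ± 1 SE and red points are the 9 genes with an adjusted p under 0.05. COP1, SPA, HY5 and PKS points all lie left of 0 (with library totals alone 1 HY5 gene turns positive), while COP9 signalosome and FAR1-RELATED SEQUENCE points lie on both sides.

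The falls depended on single libraries. All 9 were lost without SR replicate 3, where 1.23% of all genes fell, and without SCK replicate 3, where edgeR called 0 genes (0.00% falls, with 5558 genes at an unadjusted p under 0.05). In that second fit 18 of the 79 had a negative and 4 a positive log2 fold change at an unadjusted p under 0.05, while DESeq2 without SCK replicate 3 called 10 falls and 1 rise (7.77% and 7.57% of all genes) and limma 0 falls (0.0128%). Without SCK replicate 2 the module had 4 falls (3.98% of all genes), 3 of them among the 9. Without SCK replicate 1 it had 6 (3.57%), 5 of them among the 9. Without SR replicate 1 it had 9 falls (6.84%), of which 8 were among the original 9. Without SR replicate 2 it had 7 (4.53%), of which 6 were. The sign of all 9 was negative in each alternative run. On all 6 libraries, DESeq2 called 17 falls and 3 rises (12.7% and 13.0% of all genes), and edgeR with library totals alone 6 falls and 3 rises (4.91% and 11.1%). Limma on log2 FPKM called 4 falls and 2 rises with a pseudocount of 1 (4.56% and 9.97%) and as many with 0.1 (4.43% and 9.69%).

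COP1, the ligase subunit that binds light-promoting factors, was annotated in 4 genes, of which 2 fell (50.0%, against 7.16% of all tested genes). The COP1-like gene CmoCh18G005580 (chromosome 18, 4440698 to 4452499, minus strand) had 7.70, 5.66 and 6.72 FPKM in SR and 11.1, 10.7 and 10.1 FPKM in SCK. Every SR library lay below every SCK library. It fell by 0.80 ± 0.16 on the log2 scale (adjusted p = 0.0251). The most abundant COP1 gene, CmoCh20G002560 (chromosome 20, 1240027 to 1250762, plus strand), had 12.2, 9.93 and 11.7 FPKM in SR and 15.6, 15.4 and 15.6 FPKM in SCK. The groups did not overlap, and the SCK libraries were nearly equal. It fell by 0.59 ± 0.13 (adjusted p = 0.0296). Both calls were also lost without SCK replicate 1 (adjusted p = 0.0630 for CmoCh18G005580 and 0.0722 for CmoCh20G002560) and without SCK replicate 2 (0.0585 and 0.0648 in the same order).

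The other 2 COP1 genes lie 52 bp apart on the minus strand of chromosome 2. CmoCh02G000610 had 4.70, 3.66 and 2.85 FPKM in SR and 8.92, 4.91 and 5.85 FPKM in SCK, also without overlap, but the wide SCK spread left a log2 fold change of -0.95 ± 0.33 with adjusted p = 0.0936 by edgeR and 0.0315 by DESeq2. CmoCh02G000620 overlapped between the groups, with 4.53, 1.59 and 2.999 FPKM in SR and 3.16, 3.48 and 4.63 FPKM in SCK (-0.42 ± 0.43, adjusted p = 0.536). The sources used here do not say whether these neighbours are separate genes or parts of 1 gene. Summed over the 4 COP1 genes, the level was 24.8 ± 4.16 FPKM in SR and 36.5 ± 2.13 FPKM in SCK (SD, n = 3 each).

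SPA proteins, the kinase-like partners that activate COP1, were annotated in 4 genes, of which 2 fell (50.0%, against 7.16% of all tested genes). SPA1-RELATED 2-like CmoCh15G013390 (chromosome 15, 9165497 to 9173980, minus strand) was the most abundant, with 16.3, 17.9 and 16.1 FPKM in SR and 21.1, 21.4 and 19.3 FPKM in SCK. SPA1-RELATED 3-like CmoCh01G012620 (chromosome 1, 10107433 to 10113020, plus strand) had 6.38, 5.82 and 5.44 FPKM in SR and 7.06, 9.58 and 8.46 FPKM in SCK. Neither gene overlapped between the groups, although SCK replicate 1 came close to SR replicate 1 for SPA1-RELATED 3-like. The first fell by 0.43 ± 0.10 (adjusted p = 0.0341) and the second by 0.64 ± 0.14 (adjusted p = 0.0318). With library totals alone neither passed (adjusted p = 0.0828 and 0.0560 in that order), nor did they by limma (0.102 and 0.0839). CmoCh15G013390 missed the threshold whichever library edgeR left out (0.0535 to 0.119), and CmoCh01G012620 also without SCK replicate 2 (0.0794) and without SR replicate 2 (0.0740).

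The remaining SPA genes had smaller differences. SPA1-RELATED 4-like CmoCh09G008540 had 13.3, 12.8 and 10.1 FPKM in SR and 14.8, 14.1 and 14.3 FPKM in SCK (-0.39 ± 0.14, adjusted p = 0.0947). A second SPA1-RELATED 2-like gene, CmoCh02G014310, overlapped, with 8.13, 10.4 and 8.87 FPKM in SR and 10.9, 9.51 and 10.8 FPKM in SCK (adjusted p = 0.107). The 95% interval of all 4 SPA changes stayed within 2-fold. Their summed level was 43.9 ± 3.12 FPKM in SR and 53.8 ± 0.91 FPKM in SCK.

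HY5, the bZIP factor that COP1 marks for degradation, was annotated in 3 genes, and edgeR on all 6 libraries called none, while DESeq2 called 2 falls. CmoCh05G003890, the most abundant gene of the module (chromosome 5, 1756069 to 1757646, minus strand), had 80.1, 80.5 and 75.6 FPKM in SR and 129, 83.9 and 110 FPKM in SCK. CmoCh12G002790 had 29.0, 35.9 and 26.8 FPKM in SR and 50.3, 35.9 and 41.8 FPKM in SCK. In both genes SCK replicate 1 was highest and SCK replicate 2 lowest in its group, close to the top SR library, and the mesophyll sum was ordered alike among the SCK libraries. Among the SR libraries the orders differed. Both HY5 genes were highest in SR replicate 2 and lowest in SR replicate 3, while the mesophyll sum was highest in SR replicate 1 and lowest in SR replicate 2. A link between them was not tested. Their log2 fold changes were -0.59 ± 0.18 (adjusted p = 0.0696) and -0.63 ± 0.17 (adjusted p = 0.0552). Both fell by DESeq2 (adjusted p = 0.0197 for CmoCh05G003890 and 0.0138 for CmoCh12G002790), and CmoCh05G003890 also by edgeR without SCK replicate 2 (0.0396). The third, CmoCh01G015510, was at a low level, 3.83, 4.43 and 3.82 FPKM in SR and 5.32, 2.62 and 3.66 FPKM in SCK (adjusted p = 0.869). The summed HY5 level was 113 ± 7.28 FPKM in SR and 154 ± 31.0 FPKM in SCK.

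Proteins named for binding COP1 were annotated in 9 genes, with 7 tested, 1 fall (14.3%, against 7.16% of all tested genes) and 0 rises. COP1-interactive protein 1, a coiled-coil protein, was represented by CmoCh04G007470 (chromosome 4, 3723068 to 3729407, minus strand) at 7.02, 7.89 and 5.90 FPKM in SR and 8.91, 10.98 and 10.76 FPKM in SCK. The groups were separate, and the gene fell by 0.69 ± 0.13 (adjusted p = 0.0210). Without SCK replicate 2 it did not pass (0.0572), nor by limma (0.0627). Its neighbour CmoCh04G007480, 12 bp away on the same strand and of the same name, held at most 10 counts in any library.

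COP1-interacting protein 7, which in Arabidopsis promotes light-regulated genes, was annotated in 4 tested genes. The one with the smallest p, CmoCh08G010520, had 15.7, 13.3 and 16.8 FPKM in SR and 17.03, 28.3 and 22.1 FPKM in SCK. Its groups did not overlap, but SCK replicate 1 lay next to SR replicate 3, and the log2 fold change of -0.68 ± 0.19 did not pass by edgeR (adjusted p = 0.0561), but did by DESeq2 (0.00845) and by edgeR without SCK replicate 1 (0.0476). The most abundant one, CmoCh09G008720, had 62.0, 62.0 and 69.9 FPKM in SR and 40.5, 89.5 and 72.0 FPKM in SCK, where the SCK libraries enclosed all SR libraries (adjusted p = 0.663). The pair of COP1 SUPPRESSOR 2-like genes, named for an Arabidopsis protein that restrains COP1, ran the other way in FPKM. CmoCh04G022820 had 14.5, 14.9 and 16.5 FPKM in SR and 10.8, 11.9 and 12.4 FPKM in SCK (0.26 ± 0.12, adjusted p = 0.172). CmoCh15G008850 had 14.9, 14.1 and 14.9 FPKM in SR and 10.4, 11.6 and 12.5 FPKM in SCK (0.22 ± 0.13, adjusted p = 0.285). Both lay wholly above SCK, and neither was called.

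**Figure D2:**
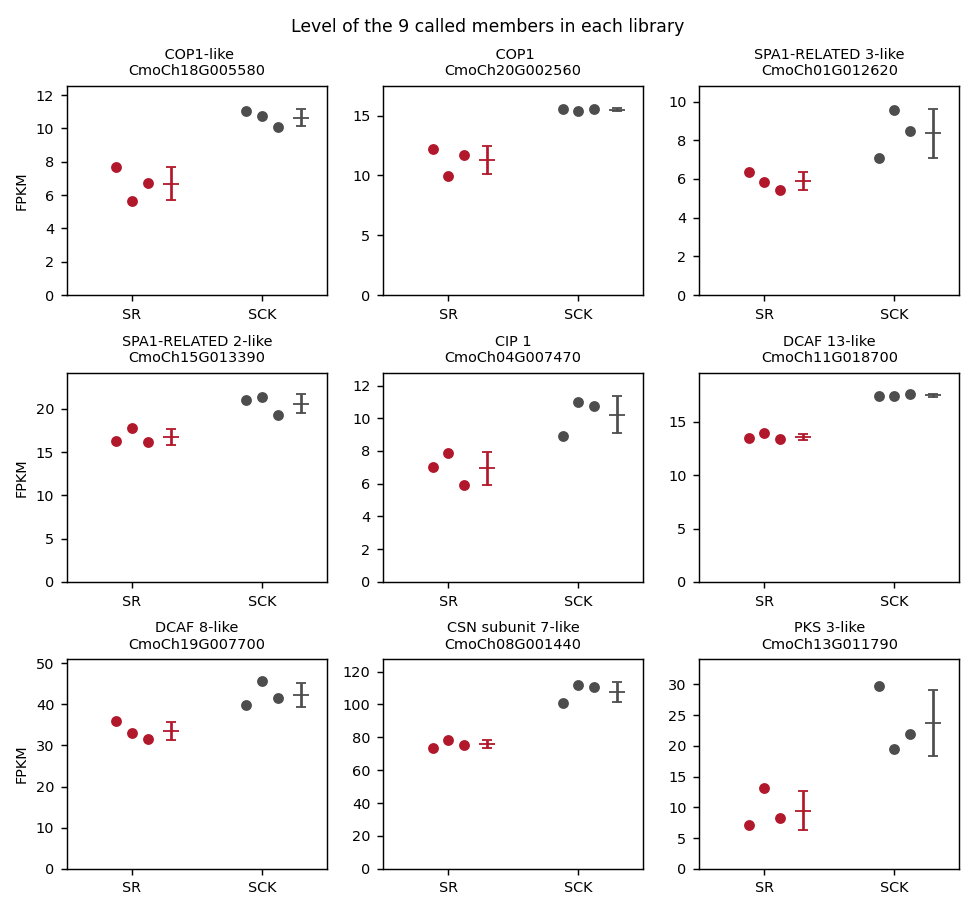
FPKM of the 9 genes that fell, 1 panel each, with SR libraries in red on the left and SCK libraries in grey on the right; crosses show the mean and bars ± 1 SD of 3 libraries. In every panel all SR points lie below all SCK points, with the widest gap relative to level for PKS 3-like and closely spaced libraries within each group for DCAF 13-like. CIP is COP1-interactive protein, DCAF a DDB1- and CUL4-associated factor and CSN the COP9 signalosome.

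DET1 and the DDB1-associated proteins were annotated in 9 genes, with 8 tested and 2 falls. DDB1- and CUL4-associated factors (DCAFs) are the interchangeable substrate receptors of CUL4 ligases. DCAF 13-like CmoCh11G018700 (chromosome 11, 12993667 to 13029421, minus strand), whose counterpart in yeast and humans acts in processing of small-subunit ribosomal RNA, had 13.5, 13.9 and 13.4 FPKM in SR and 17.4, 17.4 and 17.6 FPKM in SCK. DCAF 8-like CmoCh19G007700 (chromosome 19, 7777696 to 7783119, minus strand), the most abundant of the group, had 36.0, 33.0 and 31.5 FPKM in SR and 39.9, 45.6 and 41.5 FPKM in SCK. Both were separate between groups, and libraries within a group lay close together for DCAF 13-like. They fell by 0.50 ± 0.09 (adjusted p = 0.0190) and by 0.47 ± 0.11 (adjusted p = 0.0348). DCAF 8-like did not pass without SR replicate 2 (0.0783), SCK replicate 1 (0.0697) or SCK replicate 2 (0.0899), nor with library totals alone (0.0669), and limma on FPKM called neither (0.0511 to 0.0837).

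The other genes of this group were not called by edgeR on all 6 libraries. DET1-like CmoCh14G020190, which belongs to the ligase complex that represses photomorphogenesis beside COP1, had 10.5, 17.02 and 11.7 FPKM in SR and 27.3, 15.1 and 19.1 FPKM in SCK. SR replicate 2 exceeded SCK replicate 2, and the log2 fold change of -0.80 ± 0.27 had adjusted p = 0.0878 by edgeR and 0.0268 by DESeq2. DCAF 1-like CmoCh01G009960 likewise passed by DESeq2 alone (-0.28 ± 0.09, adjusted p = 0.0766 by edgeR and 0.0158 by DESeq2). A second DCAF 13-like gene, CmoCh19G009040, lay wholly above SCK at 2.65, 3.22 and 3.43 FPKM in SR and 1.62, 1.91 and 1.85 FPKM in SCK (0.65 ± 0.20, adjusted p = 0.0696). With library totals alone this gene rose (adjusted p = 0.0482), as it did by DESeq2 (0.0101). Of the 2 genes for DDA1, a small DET1 and DDB1 partner, CmoCh02G014600 had 6.30, 5.47 and 6.44 FPKM in SR and 3.58, 3.72 and 4.41 FPKM in SCK without overlap (0.50 ± 0.22, adjusted p = 0.163). The more abundant DDA1 gene, CmoCh15G013180, overlapped between the groups (adjusted p = 0.995).

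The COP9 signalosome, an assembly of 8 subunit kinds with CSN5 as its catalytic protease, was annotated in 17 genes. Of 15 tested, 1 fell (6.67%, near the 7.16% of all tested genes) and 0 rose. The median log2 fold change was 0.06, and 0.20 with library totals alone, and all 15 intervals stayed within 2-fold. Summed over the 17 genes, the level was 367 ± 17.2 FPKM in SR and 359 ± 20.1 FPKM in SCK. The gene that fell was the most abundant one, subunit 7-like CmoCh08G001440 (chromosome 8, 803096 to 808358, plus strand), with 73.8, 78.3 and 75.3 FPKM in SR and 101, 112 and 110 FPKM in SCK. It stood apart clearly between the groups, fell by 0.64 ± 0.10 (adjusted p = 0.0142) and had the smallest adjusted p of the module. Among 16 unblocked alternatives, only the fits without SR replicate 3 (0.0572) or without SCK replicate 3 (0.0848 by edgeR and 0.133 by limma) lost it.

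In FPKM, 6 of the 15 tested signalosome genes lay wholly above SCK (40.0%, against 27.9% of all tested genes). Wholly below it lay 1 gene (6.67%, against 12.7%). Among the 6 above SCK, the largest log2 fold changes were in CSN1 and CSN2, subunits of the PCI-domain scaffold. CSN1 CmoCh14G020720 had 11.1, 11.4 and 13.1 FPKM in SR and 7.42, 8.26 and 8.78 FPKM in SCK (0.41 ± 0.12, adjusted p = 0.0674). The only CSN2 gene, CmoCh02G012240, had 55.8, 60.8 and 53.8 FPKM in SR and 31.0, 36.8 and 49.4 FPKM in SCK (0.41 ± 0.16, adjusted p = 0.135). Both were separate between groups, and SCK replicate 3 stood nearest to SR for each. CSN1 CmoCh14G020720 rose with library totals alone (adjusted p = 0.0366) and by DESeq2 (0.0231), and CSN2 rose by DESeq2 without SCK replicate 3 (0.00262). CmoCh14G020720 overlaps another CSN1 gene, CmoCh14G020710 on the opposite strand, by 702 bp. The sources used here do not say whether counting used the strand, and reads in the overlap may belong to either gene.

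By subunit kind, sums over genes showed which parts of the complex were level between the groups. CSN4 summed to 31.8 ± 1.73 FPKM in SR and 32.1 ± 0.51 FPKM in SCK. CSN5 summed to 39.9 ± 1.71 FPKM in SR and 41.0 ± 1.09 FPKM in SCK. CSN8 summed to 66.5 ± 5.30 FPKM in SR and 62.9 ± 6.97 FPKM in SCK. These differed by less than the SD of at least 1 group. CSN1 summed to 29.9 ± 3.51 FPKM in SR and 22.7 ± 2.91 FPKM in SCK, and CSN7 to 106 ± 2.96 FPKM in SR and 131 ± 7.13 FPKM in SCK. CSN7 was thus the most abundant subunit kind in both groups, and CSN6 the least, at 6.74 ± 0.93 FPKM in SR and 5.57 ± 0.27 FPKM in SCK.

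**Figure D3:**
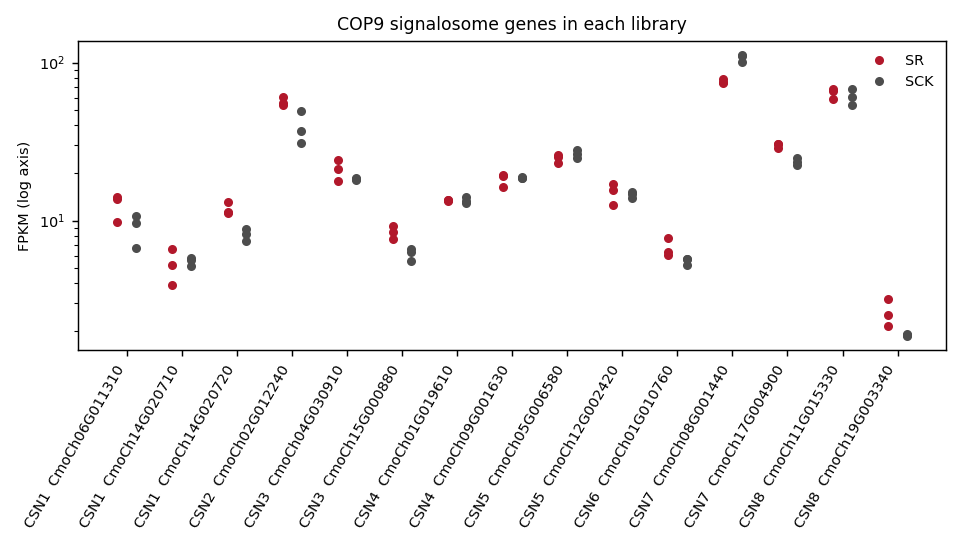
FPKM on a log axis of the tested COP9 signalosome genes, ordered by subunit, with SR libraries in red and SCK libraries in grey. The subunit 7-like gene CmoCh08G001440 has all SR points below SCK, while its namesake CmoCh17G004900, CSN1 CmoCh14G020720 and CSN2 have all SR points above SCK.

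Several products were encoded by 2 or more genes, which allowed ratios within a library that no scaling changes. Among genes outside the FAR1-RELATED SEQUENCE family, 37 same-product pairs could be formed from genes with a mean of 1 FPKM or more over the 6 libraries. Ratios did not overlap between groups in 14 of them, and log2 fold changes had opposite signs in 10. Some genes recur in several pairs, and no such count was made over pairs of all genes, so these counts have no background. The following pairs were chosen after their values were seen and carry no test. For CSN7, CmoCh08G001440 over CmoCh17G004900 was 2.55, 2.58 and 2.46 in SR and 4.50, 4.51 and 4.71 in SCK. CmoCh17G004900 itself had 29.0, 30.3 and 30.5 FPKM in SR and 22.4, 24.8 and 23.5 FPKM in SCK (0.21 ± 0.09, adjusted p = 0.156). The share of the more abundant CSN7 gene was thus lower in all 3 SR libraries. For DCAF 13-like, CmoCh11G018700 over CmoCh19G009040 was 5.10, 4.32 and 3.90 in SR and 10.7, 9.11 and 9.52 in SCK, again without overlap. The larger COP1 genes, CmoCh18G005580 over CmoCh20G002560, had a ratio of 0.591 ± 0.034 in SR and 0.685 ± 0.034 in SCK. The ratio of the more abundant HY5 genes, CmoCh05G003890 over CmoCh12G002790, overlapped between the groups, at 2.61 ± 0.321 in SR and 2.51 ± 0.158 in SCK. The ratios of the low-level HY5 gene CmoCh01G015510 did not overlap, at 0.051 ± 0.004 in SR and 0.035 ± 0.005 in SCK over CmoCh05G003890, and at 0.133 ± 0.010 in SR and 0.089 ± 0.016 in SCK over CmoCh12G002790.

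**Figure D4:**
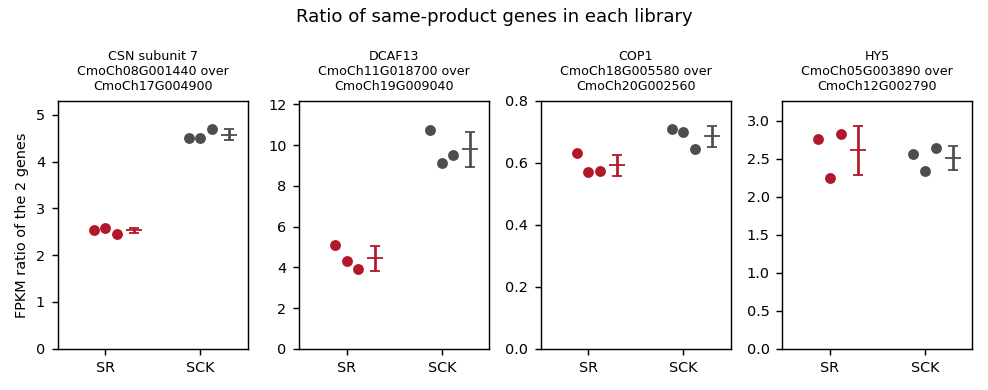
Ratio of the FPKM of 2 genes with the same product in each library, SR in red on the left and SCK in grey on the right, with mean ± SD of 3 libraries beside the points. The CSN subunit 7 and DCAF 13 ratios in SR are near 2.53 and 4.44 on average against 4.57 and 9.79 in SCK, while the ratios of the HY5 pair drawn, the 2 more abundant of 3 HY5 genes, overlap.

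PKS proteins were annotated in 7 genes, with 5 tested, 1 fall and 0 rises, and all 5 log2 fold changes were negative (median -0.64). PKS 3-like CmoCh13G011790 (chromosome 13, 9388562 to 9389791, minus strand) had 7.05, 13.1 and 8.25 FPKM in SR and 29.8, 19.5 and 21.97 FPKM in SCK. SR replicate 2 and SCK replicate 2 came nearest to each other, and the groups did not overlap. With a log2 fold change of -1.48 ± 0.27 it was the largest fall of the module (adjusted p = 0.0195). The call was lost without SR replicate 3 (0.0777) and without SCK replicate 3 (0.0848). PKS 4-like CmoCh06G000550 was the most abundant, with 74.2, 79.5 and 81.4 FPKM in SR and 97.1, 91.7 and 89.0 FPKM in SCK. It lay wholly below SCK but missed the threshold by edgeR (-0.38 ± 0.11, adjusted p = 0.0594), while it fell by DESeq2 (0.00499, and 0.0218 without SCK replicate 3). The sum over the 7 genes was 110 ± 5.38 FPKM in SR and 142 ± 8.88 FPKM in SCK.

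FHY3, FAR1 and FHL were annotated in 7 genes, all tested, and edgeR on all 6 libraries called none (median log2 fold change -0.01, and 0.12 with library totals alone). FAR1-like CmoCh04G006530, the most abundant, had 37.1, 27.9 and 33.5 FPKM in SR and 40.0, 40.9 and 43.2 FPKM in SCK. The groups did not overlap, and its log2 fold change was -0.46 ± 0.15 (adjusted p = 0.0743). It fell by DESeq2 (adjusted p = 0.0294) and by edgeR without SR replicate 1 (0.0351). The annotation marks this gene and its neighbour CmoCh04G006540, 72 bp away on the same strand, as low quality. FAR1 genes CmoCh13G008760 and CmoCh13G008770 lie 116 bp apart. The sources used here do not say whether the neighbours in either couple are separate genes. FHY3-like CmoCh04G006560 had 9.26, 9.06 and 9.30 FPKM in SR and 10.5, 10.6 and 9.11 FPKM in SCK (adjusted p = 0.165). FHY3 CmoCh16G005370 had 15.6, 16.1 and 15.2 FPKM in SR and 12.8, 15.4 and 14.7 FPKM in SCK (adjusted p = 0.974). The FHL gene CmoCh03G004290, whose Arabidopsis counterpart carries phytochrome A into the nucleus, was at the lowest level of the group, 1.56, 1.02 and 1.03 FPKM in SR and 0.876, 0.781 and 1.32 FPKM in SCK. Its 95% interval, -0.71 to 1.004, allowed a change of up to about 2-fold upward (adjusted p = 0.815).

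The FAR1-RELATED SEQUENCE (FRS) family, relatives of FHY3 and FAR1 that descend from transposases, was the largest group, with 26 genes. All were tested and 0 were called, against 14.4% of all tested genes. At an unadjusted p under 0.05 stood 5 genes, of which 1 was positive. The median log2 fold change was -0.05 and turned positive, at 0.09, with library totals alone and, at 0.07, by limma. SR and SCK overlapped in 20 of the 26 genes. SR lay wholly above in 6 (23.1%, against 27.9% of all tested genes) and wholly below in 0 (0%, against 12.7%). Among the 6, FRS 10 CmoCh07G003490 had 1.14, 1.54 and 1.18 FPKM in SR and 0.879, 0.907 and 0.705 FPKM in SCK. It passed the filter through its SR libraries alone, so the filter itself favoured a difference there. FRS 5-like CmoCh06G016460 (chromosome 6, 11449035 to 11452036, plus strand) had 3.63, 5.86 and 2.89 FPKM in SR and 1.77, 1.76 and 1.60 FPKM in SCK. All SR libraries were higher and more spread than SCK, and the log2 fold change of 1.12 ± 0.30 was the highest of the module, just short of the threshold (adjusted p = 0.0514). It rose by DESeq2 (adjusted p = 0.00722), with library totals alone (0.0400) and by limma (0.0483 with a pseudocount of 1).

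The family's most abundant gene, FRS 4 CmoCh07G000130, had 24.3, 25.6 and 22.9 FPKM in SR and 17.3, 19.9 and 20.4 FPKM in SCK (0.20 ± 0.10, adjusted p = 0.197). FRS 7-like CmoCh06G014470 had 6.26, 6.85 and 5.38 FPKM in SR and 6.60, 8.42 and 7.39 FPKM in SCK (-0.41 ± 0.14, adjusted p = 0.0967). The first was separate between groups in FPKM and the second overlapped. The 7 genes named FRS 5 ranged from -0.61 to 1.12 in log2 fold change, and the 6 named FRS 6 from -0.49 to 0.00. The 3 FRS 10 genes had the lowest levels, with means of 0.969 to 2.44 FPKM over the 6 libraries. The FRS sum was 199.5 ± 0.56 FPKM in SR and 190 ± 13.9 FPKM in SCK.

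The 7 genes below the filter were 2 PKS, 2 COP1-interactive protein 1, 2 CSN1 and 1 DET1 gene. CSN1-like CmoCh08G008980 had a count of 0 in all 6 libraries, and CSN1-like CmoCh17G000190 had 27, 34 and 4 counts in SR and 6, 0 and 0 counts in SCK. DET1-like CmoCh14G020180 overlaps the tested DET1-like gene on the opposite strand by 450 bp, and a similar overlap of 749 bp joins PKS 4-like CmoCh14G004720 to the tested CmoCh14G004710. Together with the CSN1 genes these are 3 opposite-strand overlaps among 8 couples of members that lie close together, the other 5 being on the same strand.

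Features that the search did not use were also read for the members. The members were spread over 20 chromosomes, with 11 genes on chromosome 1, the most on any. Their median gene span was 4036 bp against 2697 bp for all genes, and the median level of those tested was 10.3 FPKM against 10.7 FPKM. The deposited KEGG map of plant circadian rhythm held 11 members, namely the 4 COP1, 4 SPA and 3 HY5 genes. The GO term for protein deneddylation was attached to 11 members, 10 of them signalosome genes, and the term for DNA-templated transcription regulation to 30, of which 24 were FRS genes. Within groups, the median coefficient of variation of member levels was 11.6% in SR and 10.6% in SCK, against 15.9% and 13.9% over all tested genes.

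Genes that work with the module but do not carry its names were read from the same fit. Phytochromes, the red and far-red receptors, matched 8 genes including 1 phytochrome A-associated F-box gene, with 7 tested, 2 falls and 0 rises (median -0.21). Falls made up 28.6% of these few genes, against 7.16% of all tested genes. Phytochrome E-like CmoCh18G004270 had 4.90, 4.18 and 4.03 FPKM in SR and 6.03, 6.06 and 6.10 FPKM in SCK (-0.61 ± 0.13, adjusted p = 0.0304). Phytochrome B-like CmoCh06G015600 had 2.86, 2.60 and 2.35 FPKM in SR and 4.24, 3.60 and 3.39 FPKM in SCK (-0.66 ± 0.17, adjusted p = 0.0454). Both were separate between the groups. Phytochrome A CmoCh05G009670, by far the most abundant, overlapped, with 39.2, 41.6 and 33.2 FPKM in SR and 40.1, 40.1 and 40.7 FPKM in SCK (adjusted p = 0.251). The phytochrome E-like call was lost in 8 and the phytochrome B-like call in 10 of 16 unblocked alternatives.

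The search for COP1 substrates and partners returned 16 genes, 15 of them B-box zinc finger (BBX) genes. The other, LAF1-like CmoCh02G010780, was below the filter, at 0.0001, 0.0001 and 0.229 FPKM in SR and 0.938, 0.654 and 0.297 FPKM in SCK, where 0.0001 stands for a count of 0. All 15 BBX genes were tested, with 4 falls (26.7%, against 7.16% of all tested genes) and 0 rises (median -0.26). In Arabidopsis BBX20, BBX21 and BBX22 promote de-etiolation with HY5, while BBX18, BBX19 and BBX24 oppose it. All 6 tested genes named BBX18, BBX19 or BBX24 had negative log2 fold changes, from -2.06 to -1.03, and the 4 falls were among them. The 9 others ranged from -0.28 to 1.71, and 6 of them were negative too, with 0 calls by edgeR. This split was made after the values were seen. BBX19-like CmoCh07G004400 had 3.87, 3.16 and 2.28 FPKM in SR and 7.38, 14.7 and 11.2 FPKM in SCK (-1.96 ± 0.31, adjusted p = 0.0150). BBX24 CmoCh08G001980 had 22.2, 15.2 and 16.7 FPKM in SR and 34.3, 35.9 and 31.0 FPKM in SCK (-1.03 ± 0.18, adjusted p = 0.0188). The other falls were BBX18-like CmoCh04G007940 (-1.20 ± 0.24, adjusted p = 0.0253) and BBX24-like CmoCh17G005880 (-2.06 ± 0.45, adjusted p = 0.0304). The groups did not overlap in any of the 4, and all 4 calls were lost by edgeR without SR replicate 3 and without SCK replicate 3. BBX18-like was also lost when either of SCK replicates 1 and 2 was left out, and BBX24-like CmoCh17G005880 without SCK replicate 1, SR replicate 1 or SR replicate 2. BBX21-like CmoCh01G020060, the highest of the 9 others, had 3.19, 2.13 and 4.33 FPKM in SR and 0.314, 1.59 and 0.816 FPKM in SCK (1.71 ± 0.57, adjusted p = 0.0877).

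Cullins, their regulators and NEDD8-related proteins matched 27 genes, with 25 tested, 1 rise and 2 falls (median -0.08). Rises made up 4.0% of these, against 7.20% of all tested genes, and falls 8.0%, against 7.16%. The NEDD8-conjugating enzyme Ubc12-like gene CmoCh19G006600 was both the most abundant and the one with the smallest p, at 117, 163 and 124 FPKM in SR and 270, 276 and 289 FPKM in SCK (-1.19 ± 0.14, adjusted p = 0.0109). Its highest SR library stood far below its lowest SCK library. The other tested Ubc12 genes were not called, with log2 fold changes of -0.30 (CmoCh11G013170), -0.09 (CmoCh07G007780) and 0.12 (CmoCh03G010340). Cullin-4-like CmoCh13G005630, a scaffold of the ligases that COP1 and DET1 use, rose to 22.03, 19.96 and 20.03 FPKM in SR, against 10.50, 12.96 and 13.04 FPKM in SCK (0.63 ± 0.12, adjusted p = 0.0206). The other tested cullin-4-like gene, CmoCh18G004510, was not called (-0.29, adjusted p = 0.142). The second fall, RING-box 1a CmoCh10G007980, the RING subunit of cullin ligases, was called less firmly, at 75.9, 78.9 and 78.1 FPKM in SR and 102, 87.5 and 95.1 FPKM in SCK (-0.43 ± 0.11, adjusted p = 0.0463), and was lost in 12 of 16 unblocked alternatives. The cullin-4-like call was lost without SR replicate 3 and without each SCK replicate, and the Ubc12-like call without SCK replicate 3.

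**Figure D5:**
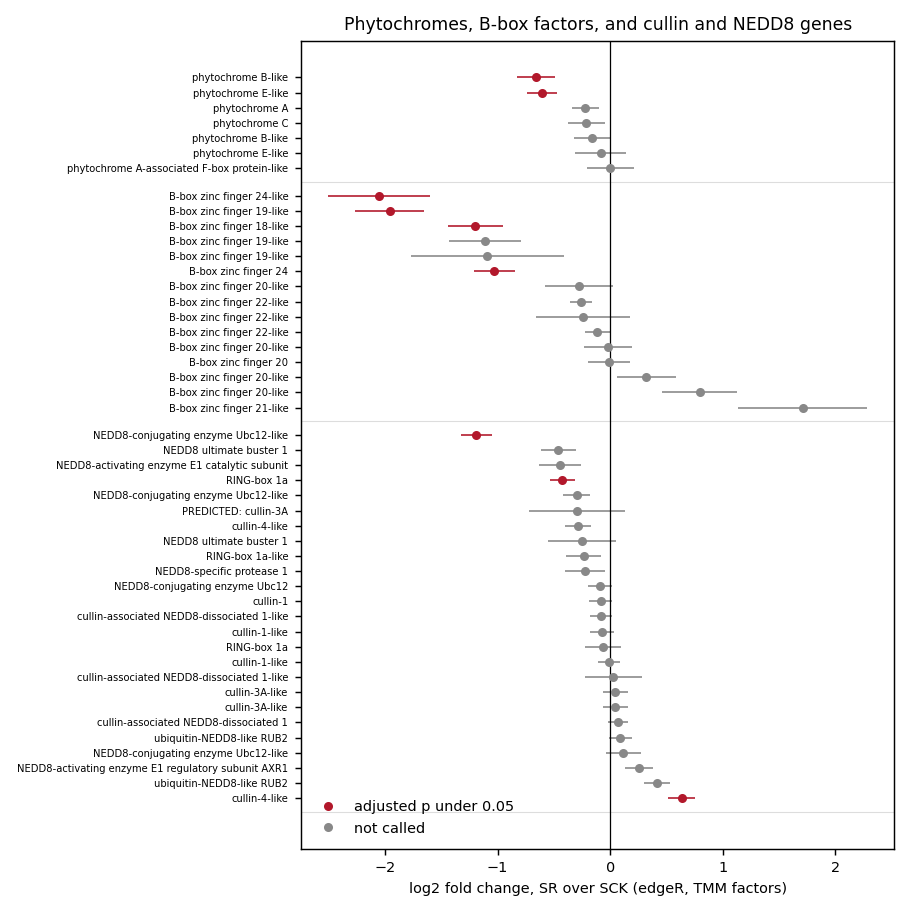
Log2 fold change ± SE of SR over SCK for the tested phytochrome genes (top), B-box genes (middle) and cullin and NEDD8 genes (bottom); red points have an adjusted p under 0.05. BBX18, BBX19 and BBX24 genes lie between -2.06 and -1.03, and among cullin and NEDD8 genes a Ubc12-like gene lies farthest left and a cullin-4-like gene farthest right.

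Genes further downstream were mostly below the filter or not called. Of 5 genes for early light-induced proteins and chalcone synthase, the entry enzyme of flavonoid synthesis, 1 was tested. Chalcone synthase 2 CmoCh14G007870 varied widely within groups, at 0.295, 5.35 and 3.56 FPKM in SR and 5.41, 0.629 and 3.67 FPKM in SCK (adjusted p = 0.883). The shade-response search matched 10 homeodomain-leucine zipper genes, with 5 tested and 1 rise, and apart from an ATHB-4-like gene below the filter their names are not those of the Arabidopsis shade genes. The gene called as a rise, ATHB-20-like CmoCh04G028840, passed the filter through its SR libraries alone, at 5.22, 1.33 and 2.18 FPKM in SR and 0.0001, 0.122 and 0.326 FPKM in SCK, so the filter itself favoured a difference. Its call (adjusted p = 0.0448) was lost with no filter, with filterByExpr and in 9 of 16 unblocked alternatives in all. The most abundant, HAT22-like CmoCh07G006240, was not called (adjusted p = 0.226).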

How the data were processed

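Poly(A) RNA libraries from pumpkin hypocotyl were stranded and paired-end, per the labels' protocols. Counts (whole numbers) and FPKM values stand side by side for each gene in 1 deposited table, per the file headers. HISAT and StringTie are named, without versions, per the submitters' processing notes. The sources used here do not give the genome build, the strand setting of the counting or the handling of multi-mapping reads. Of the value columns, 6 belong to no sample here and were not used. Among the deposited counts, 1350 equalled 4, while 567 equalled 3 and 516 equalled 5, so 1 read pair may be worth about 4 counts. The deposited FPKM was 0.0001 in all 28770 places with a count of 0. Library totals, 52300725 to 72356397, limit the precision of each value.

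Genes with FPKM of 1 or more in 3 or more libraries were tested. The test was edgeR 4.0.16 in R 4.3.3 (glmQLFit, glmQLFTest, TMM), with group alone as the model term. Adjusted p-values are Benjamini-Hochberg over 23509 genes. SE is the size of the log2 fold change over the root of F, and intervals are 95% intervals from the fit's degrees of freedom. Alternatives were DESeq2 1.42.0, limma 3.58.1 on log2(FPKM + 1) and log2(FPKM + 0.1), other scalings, other filters, counts divided by 4, a replicate block and leaving out each library. The code was tested on simulated data.

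Named genes are every called member, the most abundant and the 2 with the smallest p of each functional group, and the same 2 kinds in each related list; others were named after their values were seen. Members and lists were chosen with earlier results of these data known. No gene identifier matched the reference table, so no sequences are shown.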

Additional observations from a re-analysis of the deposited data

How the results depend on the processing

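Counts of calls moved with the test and the libraries. Size factors of DESeq2 within edgeR, filterByExpr, no filter and counts divided by 4 each kept the 9 falls called. With library totals alone, edgeR called 2602 rises among all genes and 3 among members. DESeq2 called 6026 genes, 3048 rises and 2978 falls, and 20 members, 3 rises and 17 falls. Limma called 1072 falls with a pseudocount of 1 and 1042 with 0.1, and 2 rises and 4 falls of members with each. Leaving out 1 library gave 0 to 3437 called genes, 0 to 1830 rises and 0 to 1607 falls, and 0 to 9 member falls with 0 rises. At most 8 of these member falls were among the 9 called on all 6 libraries. After the data were seen, SCK replicate 3 was also left out by DESeq2, with 1 member rise and 10 falls, and by limma, with 8 genes called, 5 rises and 3 falls, and 0 members. The cause was not tested. With the replicate number as a block, edgeR called 0 genes and 0 members (6564 genes and 25 members at an unadjusted p under 0.05), where all 9 falls were negative. Deviations from the group means of same-numbered libraries correlated at -0.132, -0.235 and 0.091, and not every library correlated best with its own number. With 3 libraries per group, these values cannot tell whether same-numbered libraries shared a batch.

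Over the alternatives, including the block, adjusted p ran from 2.59e-11 to 0.133 for CSN7 CmoCh08G001440, 7.99e-06 to 0.0961 for PKS 3-like CmoCh13G011790, 0.000392 to 0.116 for COP1-like CmoCh18G005580 and 0.00156 to 0.198 for SPA1-RELATED 2-like CmoCh15G013390. Low-level genes differed in precision. The SE was 0.36 for the FHL gene and 0.50, 0.24 and 0.18 for FRS 10 genes CmoCh03G006120, CmoCh07G003490 and CmoCh19G008700. It was 0.18 for the most abundant member, HY5 CmoCh05G003890. What set the width of the intervals was not tested.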
